A study of Homo sapiens with 6 samples.

Results

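The genes described here are 31 amino acid transporter genes of the solute carrier (SLC) families 1, 3, 6, 7, 16, 36, 38 and 43. They were chosen by symbol, and each matched 1 of the 60609 gene identifiers in the files. Their mRNA was measured by RNA sequencing in HEK293, an established line of human embryonic kidney cells, in 3 wild-type libraries and 3 libraries of cells labelled as STAT5B knockout. STAT5B is a transcription factor activated by cytokine and growth hormone receptors. CRISPR/Cas9 was used for the knockout, and per the labels, sequencing and protein blots served to choose clones with both alleles changed. All cells grew in the same serum-containing medium, and the sample names of both groups carry the word Sham, which the labels do not explain. The protocol also speaks of GS knockout clones without saying what these are, and the number of clones is not stated. Differences between picked clones and the wild-type cells and the absence of STAT5B therefore cannot be told apart. Separate cultures are not stated for the triplicates, so p-values measure the spread between these samples only, and that spread may be technical.

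Amino acid transporters set which amino acids a cell takes up, exchanges or releases. Members of the SLC7 family include light chains that reach the plasma membrane bound to the heavy chain SLC3A2 (CD98), and cationic carriers that work alone. SLC1 and SLC38 proteins use the sodium gradient to bring in acidic or neutral amino acids, and several transporters sit on lysosomes, where they pass amino acids out of the lumen and take part in signalling to the kinase complex mTORC1. Transcription of many of these genes is raised by ATF4, the effector of the amino acid response, through a sequence called the C/EBP-ATF response element.

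The libraries held 17494958 to 21099813 estimated counts, and 0.271% to 0.3% of the counts of a library fell on the 31 transporter genes. STAT5B itself (edgeR adjusted p = 0.0468) had 70.1, 64.6 and 69.4 CPM in wild-type libraries and 63.1, 61.8 and 60.5 CPM in knockout libraries, where CPM are counts scaled to 1000000 per library. A small edit need not alter the count of the gene, so these values are no check of the genotype. All 8 genes listed as typical of HEK293, among them VIM and NEFM, had a mean above 1 TPM, with a summed level of 953 to 980.4 TPM in wild-type libraries and 841 to 856 TPM in knockout libraries. TPM are levels per transcript length scaled to 1000000, the only unit here that compares genes. None of 8 mature nephron markers had a mean above 1 TPM, and UMOD, AQP2, SLC34A1 and SLC12A3 had no count. Of the blood, endothelial and fibroblast markers, PTPRC, CD3E, HBB and CDH5 had no count, while the fibroblast marker COL1A1 had a mean above 1 TPM. Summed levels in the wild type, then the knockout, were 0.071 to 0.335 and 0.039 to 0.104 TPM for endothelium and 5.58 to 6.61 and 5.39 to 6.62 TPM for fibroblasts.

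Promoter windows are shown for the changed transporters that hold a match to a motif of ATF4, the antioxidant response or STAT5. The RefSeq promoter table (GRCh38.p14, 250 bases before to 50 after each listed start) held 24 of the 31 genes with 45 starts. A total of 3 motifs were searched on both strands. TGATGNAA, the core of the C/EBP-ATF response element, was found for 6 of the 24 genes and in 3.62% of all 35116 promoters in the table (4.46% of genes). TGACNNNGC, the core of the antioxidant response element, was found for 7 of the 24 genes and in 13.3% of all promoters (16.1% of genes). TTCNNNGAA, the palindrome that STAT5 proteins bind, was found for 3 of the 24 genes and in 7.66% of all promoters (9.38% of genes). Matches of different motifs overlapped in 0 cases among the transporter promoters. Genes have up to several starts, which raises the share per gene over the share per promoter. Counted by promoter, the motifs were found, in the order given, in 6, 7 and 4 of the 45 transporter promoters. The matches are letters in a window, not shown sites of binding. Below, each window is written 5′ to 3′ on the strand of the gene with the match in capitals.
SLC1A4 element match, opposite orientation, beginning 7 bases before a listed start, chr2:64989357-64989418, plus strand: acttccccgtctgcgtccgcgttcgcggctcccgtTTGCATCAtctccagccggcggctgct
SLC1A5 element match beginning 97 bases before an inner start, chr19:46784869-46784946, minus strand: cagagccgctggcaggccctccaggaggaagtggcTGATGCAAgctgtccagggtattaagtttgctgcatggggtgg
SLC38A1 element match beginning 4 bases before a listed start, chr12:46266497-46266555, minus strand: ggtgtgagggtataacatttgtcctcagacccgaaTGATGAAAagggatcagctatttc
SLC38A1 STAT5 palindrome, same start, chr12:46266658-46266736, minus strand: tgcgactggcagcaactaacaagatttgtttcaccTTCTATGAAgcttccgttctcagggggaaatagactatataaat
SLC1A5 antioxidant core, opposite orientation, chr19:46787361-46787439, minus strand: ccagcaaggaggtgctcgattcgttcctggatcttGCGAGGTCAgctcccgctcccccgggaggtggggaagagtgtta
SLC7A6 antioxidant core nearest the start, chr16:68264462-68264540, plus strand: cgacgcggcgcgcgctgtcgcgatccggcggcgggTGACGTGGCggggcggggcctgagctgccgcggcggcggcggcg
SLC7A6 antioxidant core farther from the start, chr16:68264294-68264372, plus strand: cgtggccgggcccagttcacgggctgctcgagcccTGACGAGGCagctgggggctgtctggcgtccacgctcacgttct
Of the 3 genes that rose, 1 of 3 in the table held the C/EBP-ATF core, against 2 of 7 genes that fell and 3 of 12 that did not pass the test. The STAT5 palindrome was found for 0 of the 3 that rose, 1 of the 7 that fell and 2 of the 12 that did not pass. The antioxidant core was found for 0 of 3, 2 of 7 and 4 of 12.

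Wild-type HEK293 cells expressed a broad set of these transporters, led by the neutral amino acid exchanger SLC1A5 (ASCT2), the main glutamine importer of many cultured cells. Its level was 268, 257 and 262 TPM in the wild type. SLC38A2, a sodium-coupled importer of small neutral amino acids, followed with 144, 145 and 147 TPM. The heavy chain SLC3A2 had 133, 116 and 145 TPM, and the creatine transporter SLC6A8 139, 129 and 126 TPM, and SLC3A2 overlapped both of the others while SLC6A8 lay below SLC38A2 in every wild-type library. SLC38A1, a glutamine importer, had 103, 101 and 102 TPM and lay below these genes in every wild-type library. These 5 genes held 55% to 55.7% of the summed TPM of the 31 transporters in wild-type libraries and 55.4% to 56.9% in knockout libraries.

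**Figure D1:**
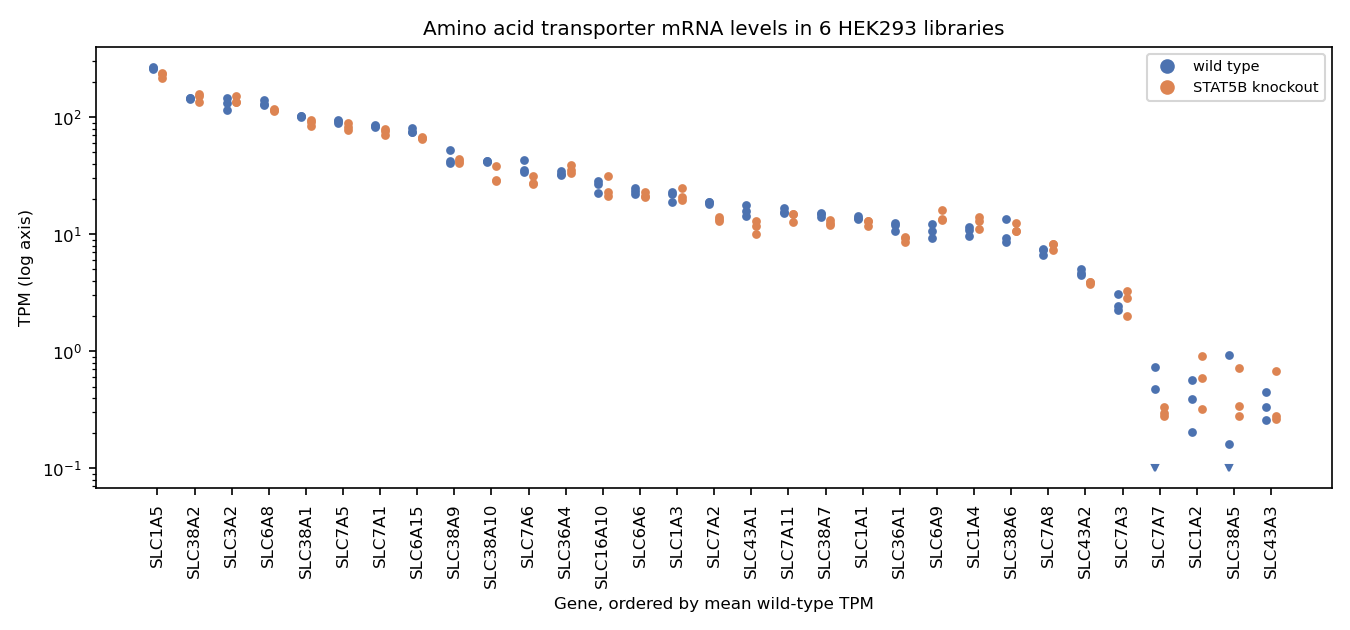
Level of each of the 31 transporter genes as TPM (log axis) in the 3 wild-type and 3 knockout libraries, ordered by mean wild-type level. Triangles at the lower edge mark SLC7A7 and SLC38A5 in wild-type replicate 1, listed at 0. SLC1A5 is highest in every library and SLC7A7, SLC1A2, SLC38A5 and SLC43A3 lie below 1 TPM in all 6.

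A middle group followed. SLC7A5 (LAT1), a carrier of large neutral amino acids, had 92.1 ± 2.23 TPM (SD, n = 3 here and below), SLC7A1 (CAT1), the widely expressed arginine and lysine carrier, 84.1 ± 2.23 TPM, and SLC6A15, a carrier of branched-chain amino acids and proline, 76.2 ± 3.66 TPM. SLC38A9, the lysosomal arginine sensor and carrier, had 45.1 ± 6.72 TPM and SLC38A10 41.9 ± 0.716 TPM, which overlap. At the other end SLC7A7, SLC38A5 and SLC43A3 had 0 to 10 estimated counts per library and were not tested. SLC1A2, the main glutamate transporter of astrocytes, was tested with 1.52 ± 0.089 CPM. The other tested genes lay between 2.61 TPM for SLC7A3 and 37.5 TPM for SLC7A6 in the wild type.

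Knockout and wild type were compared to find which of these mRNAs differed. Of the 28 transporter genes tested, 3 rose (SLC6A9, SLC1A4 and SLC38A2) and 8 fell (SLC7A2, SLC36A1, SLC43A1, SLC38A10, SLC38A7, SLC7A6, SLC1A5 and SLC38A1) at an edgeR adjusted p under 0.05. Among all 15958 genes tested 12.1% rose and 11.4% fell (23.4% in all), against 10.7% and 28.6% of the 28. The changes were small, with log2 fold changes of -0.37 to 0.53 among the 11 genes and 0 of 28 changed more than 2-fold. The median log2 fold change was -0.064 over the 28 genes and 0.0063 over all genes tested, and the median size of a change was 0.11 and 0.14. The knockout CPM lay above the wild-type CPM without overlap for 6 of the 28 genes and below for 10, and among all genes tested for 19.9% and 18.7%, 38.6% in all. In bulk libraries, fewer cells that express a gene and less RNA per cell cannot be told apart.

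The transporter genes were long, with a median length of 3558 bases against 2345 over all genes tested. With offsets for the trend of each library on gene length, the median of the 28 genes was 0.024 and 5 of the 8 falls remained, those of SLC7A2, SLC36A1, SLC43A1, SLC38A10 and SLC1A5. The number that fell was 3 without wild-type replicate 1 and 3 without knockout replicate 2, and the number that rose was 1 without knockout replicate 1. On log2(TPM + 1), where the median of all genes tested was -0.059, 0 of the 28 rose and 3 fell in limma, with 1 higher and 12 lower at an unadjusted p under 0.05. Rises were 51.4% of all calls in edgeR, 30.1% on log2(TPM + 1) and 29.8% on log2(TPM + 0.1). When edgeR tested for more than a 1.2-fold change, 0 of 28 genes passed in either direction, with 2 higher and 2 lower at an unadjusted p under 0.05.

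**Figure D2:**
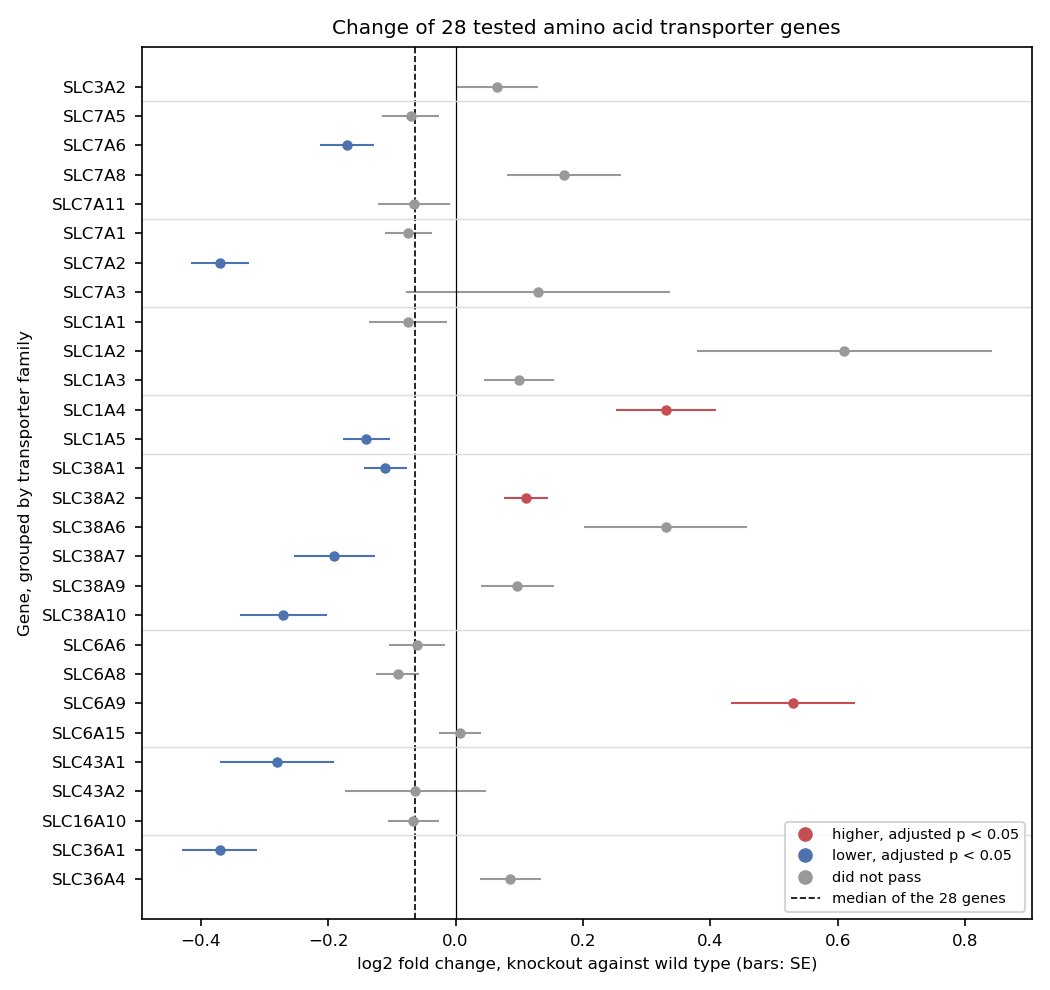
Log2 fold change of knockout against wild type with its SE for the 28 tested transporter genes, grouped by family. Values run from -0.37 for SLC7A2 and SLC36A1 to 0.61 for SLC1A2, which did not pass the test, and the dashed line marks the median of -0.064.

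SLC3A2 and its light chains form the heteromeric transporters of the plasma membrane. Only SLC7A6 among them passed the test. SLC7A6 (y+LAT2), an exchanger of arginine for neutral amino acids, had 115, 104 and 106 CPM in wild-type libraries and 97.5, 95.4 and 94.3 CPM in knockout libraries. The groups did not overlap, and wild-type replicate 1 was the highest. Its log2 fold change was -0.17 (SE 0.0426, edgeR adjusted p = 0.00873), and the adjusted p was 0.0532 without wild-type replicate 1 and 0.0578 with length-trend offsets. On log2(TPM + 1) it was -0.37 (limma adjusted p = 0.0592). SLC7A6 overlaps SLC7A6OS on the other strand (gene level 18.8 CPM), and whether counting used strand is not given, so reads of these genes may be shared.

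The heavy chain SLC3A2 had 119, 109.9 and 128 CPM in wild-type libraries and 133, 112 and 129 CPM in knockout libraries. These values overlap, with a log2 fold change of 0.065 and a 95% interval of -0.07 to 0.20 (edgeR adjusted p = 0.506). SLC7A5 had 224 ± 6.53 and 213 ± 14.7 CPM, a log2 fold change of -0.070 with an interval of -0.17 to 0.03 (edgeR adjusted p = 0.293, and 0.0317 without knockout replicate 3). SLC7A11 (xCT), the cystine importer that feeds glutathione synthesis, had 78.4 ± 3.8 and 75 ± 5.66 CPM, with an interval of -0.19 to 0.06. SLC7A8 (LAT2) had 12.7 ± 0.902 and 14.3 ± 0.938 CPM, with an interval of -0.02 to 0.36. SLC7A5 has near-identical pseudogene copies, so its level is uncertain.

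Within each library the heavy chain was set against the sum of its 5 light chains. SLC3A2 had 0.831, 0.779 and 0.965 TPM per TPM of light chains in wild-type libraries and 1.09, 1.07 and 0.976 in knockout libraries. The groups did not overlap, but wild-type replicate 3 and knockout replicate 3 lay close together. The same ratio of CPM was 0.275, 0.263 and 0.305 in wild-type libraries and 0.331, 0.296 and 0.311 in knockout libraries, which overlap. TPM divides by the effective length that the authors deposited per library, and for SLC3A2 this was 1480 bases on average in wild-type libraries and 1361 in knockout libraries. The part of that length in the ratio was not tested. SLC7A5 held 59.1% to 61% of the light chain TPM in wild-type libraries and 60.1% to 63.4% in knockout libraries.

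**Figure D3:**
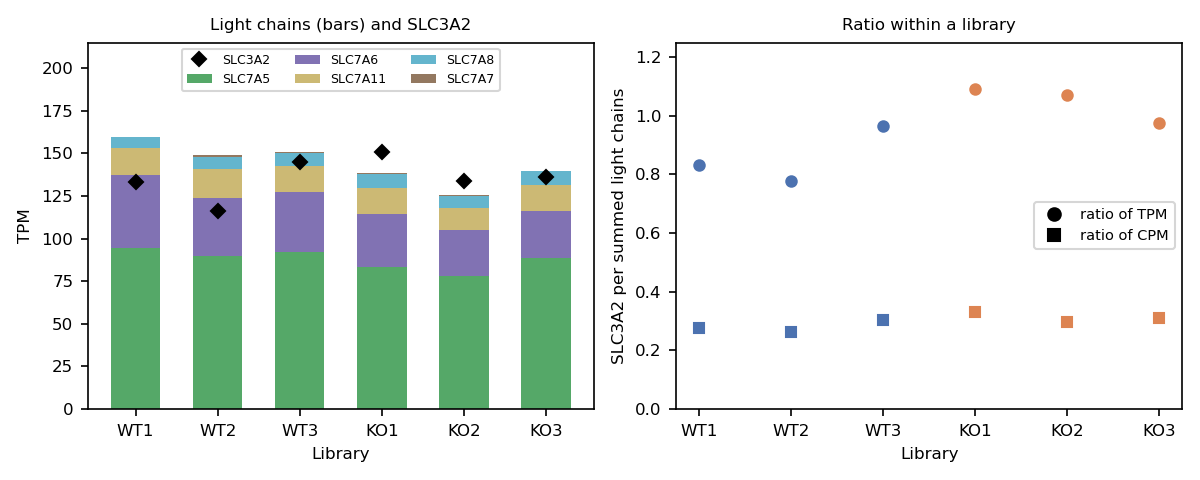
Left, TPM of the 5 light chains (stacked bars) and of SLC3A2 (diamonds) in each library, WT1 to WT3 wild type and KO1 to KO3 knockout. Right, SLC3A2 per summed light chains in the same libraries, as a ratio of TPM (circles) and of CPM (squares), where the groups are apart in TPM and overlap in CPM.

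Among the cationic amino acid transporters, which carry arginine, lysine and ornithine, SLC7A2 fell and SLC7A1 and SLC7A3 did not pass the test. SLC7A2 (CAT2), on chromosome 8, had 80.9, 81.8 and 78.5 CPM in wild-type libraries and 58.8, 63.8 and 64 CPM in knockout libraries. Every knockout library lay well below every wild-type library. Its log2 fold change was -0.37 (SE 0.0458, edgeR adjusted p = 7.13e-05), and it passed in each of the 18 alternatives except the test against a 1.2-fold change (adjusted p = 0.147). With length-trend offsets it was -0.25. SLC7A1 had 365 ± 11.2 and 347 ± 14.9 CPM, a log2 fold change of -0.074 with an interval of -0.15 to 0.01 (edgeR adjusted p = 0.174). SLC7A3 was low, with 2.99 to 4.08 CPM in wild-type libraries and 2.88 to 4.51 CPM in knockout libraries. The summed level of these 3 genes was 105 ± 2.2 TPM in wild-type libraries and 91.9 ± 5.28 TPM in knockout libraries.

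The neutral amino acid exchangers SLC1A4 and SLC1A5 moved in opposite directions. SLC1A4 (ASCT1, chromosome 2, 64988477 to 65023865, plus strand, hg38), which carries serine, alanine and cysteine, had 25, 27.9 and 29.3 CPM in wild-type libraries and 37.2, 30.8 and 35.6 CPM in knockout libraries. The groups did not overlap, and knockout replicate 2 lay nearest to the wild type. Its log2 fold change was 0.33 (SE 0.0789, edgeR adjusted p = 0.00807, and 0.0544 without knockout replicate 1). SLC1A5 (chromosome 19, 46774883 to 46788594, minus strand) had 389, 378 and 381 CPM in wild-type libraries and 348, 328 and 363 CPM in knockout libraries. All knockout libraries were lower, with a log2 fold change of -0.14 (SE 0.0371, edgeR adjusted p = 0.0122), and the call ended without wild-type replicate 1 (0.0579) or knockout replicate 2 (0.0555). The ratio of SLC1A5 to SLC1A4 in TPM was 27.6, 23.9 and 22.7 in wild-type libraries and 16.6, 19.4 and 18.5 in knockout libraries. The groups were apart in this ratio, and SLC1A5 remained the far more abundant mRNA in every library. The C/EBP-ATF core shown above was found near a start of each of these genes. With effective-length offsets neither gene passed (adjusted p = 0.0802 and 0.0697), and on log2(TPM + 1) SLC1A4 had an adjusted p of 0.236 in limma.

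The glutamate transporters of the same family showed no call, with 0 of 3 in edgeR, DESeq2 and limma-voom and 1 higher at an unadjusted p under 0.05 in edgeR. That gene was SLC1A2, with 1.47, 1.63 and 1.48 CPM in wild-type libraries and 2.44, 2.11 and 2.46 CPM in knockout libraries. All knockout values were above all wild-type values at this low level, with a log2 fold change of 0.61 (SE 0.231, edgeR adjusted p = 0.0711) and an interval of 0.12 to 1.11. With length-trend offsets it passed (log2 fold change 0.73). In TPM the wild-type values of SLC1A2 were 0.205 to 0.566 and the knockout values 0.324 to 0.903, which overlap. SLC1A3 (EAAT1), at 21.4 ± 2.07 TPM the highest of the 3 in the wild type, had 41.7 ± 1.9 and 44.7 ± 1.56 CPM, and SLC1A1 (EAAT3) 29.2 ± 1.07 and 27.7 ± 1.17 CPM.

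The sodium-coupled SLC38 family was split, with SLC38A2 higher and SLC38A1, SLC38A7 and SLC38A10 lower. SLC38A2 (SNAT2), the transporter of this family that amino acid shortage induces, had 296, 289.7 and 289.6 CPM in wild-type libraries and 326, 302 and 319.7 CPM in knockout libraries. SLC38A1 (SNAT1) had 395, 402 and 412 CPM in wild-type libraries and 388, 364 and 373 CPM in knockout libraries. The groups of each gene lay apart, in opposite directions. The log2 fold changes were 0.11 for SLC38A2 (SE 0.0343, edgeR adjusted p = 0.0271) and -0.11 for SLC38A1 (SE 0.0332, edgeR adjusted p = 0.0341). The genes are neighbours on chromosome 12, and the nearest tested genes had a median log2 fold change of -0.002. The ratio of SLC38A2 to SLC38A1 was 1.39 to 1.44 in TPM in wild-type libraries and 1.61 to 1.67 in knockout libraries, and 0.703 to 0.748 against 0.829 to 0.857 in CPM.

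SLC38A1 and SLC38A2 each passed in 8 of 18 alternatives. SLC38A1 had a log2 fold change of -0.005 with length-trend offsets (adjusted p = 0.937). Its call ended without wild-type replicate 1, 2 or 3 (adjusted p = 0.0535, 0.0924 and 0.130) or knockout replicate 2 (0.128). That of SLC38A2 ended when any wild-type library was left out (0.0629, 0.0957 and 0.0839 for replicates 1, 2 and 3), or knockout replicate 1 (0.117) or 3 (0.0551), and on log2(TPM + 1) its value was 0.025.

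SLC38A7 and SLC38A9 are transporters of the lysosome, and SLC38A10 belongs to the same family. SLC38A10 had 55.4, 55.7 and 57.3 CPM in wild-type libraries and 43.5, 43.7 and 53.1 CPM in knockout libraries. Knockout replicate 3 lay close to the wild type and the other two well below it. Its log2 fold change was -0.27 (SE 0.0684, edgeR adjusted p = 0.012, and 0.0630 and 0.0629 without knockout replicate 1 or 2). It lies on chromosome 17, where its 50 nearest tested genes had a median of -0.141 and 16 of them fell, and its own part beside that shift was not tested. SLC38A7, a glutamine and asparagine exporter of lysosomes, had 30.1, 31.8 and 28.4 CPM in wild-type libraries and 25.6, 26.7 and 26.9 CPM in knockout libraries. The groups lay apart, with a log2 fold change of -0.19 (SE 0.0631, edgeR adjusted p = 0.0422), among neighbours on chromosome 16 with a median of 0.119. The call of SLC38A7 ended in 15 of 18 alternatives, among them DESeq2 (0.0968), limma-voom (0.0517) and edgeR when leaving out wild-type replicate 1 (0.0930), wild-type replicate 2 (0.168), or knockout replicate 1, 2 or 3 (0.135, 0.0792 and 0.0546). SLC38A9 had 38.2 ± 1.93 and 40.9 ± 1.75 CPM and did not pass. SLC38A6 had 5.66 to 7.96 CPM in wild-type libraries and 8.5 to 8.63 CPM in knockout libraries, with an edgeR adjusted p of 0.0806, and 0.0416 without wild-type replicate 1. It overlaps TRMT5 on the other strand, which had a level of 48 CPM.

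Of the sodium- and chloride-coupled SLC6 family, SLC6A9 rose. SLC6A9 (GLYT1, chromosome 1, 43991500 to 44031467, minus strand), a glycine importer, had 14.6, 14 and 16.5 CPM in wild-type libraries and 23.9, 18.9 and 22.6 CPM in knockout libraries. Knockout replicate 2 was the lowest of its group and still above every wild-type library. Its log2 fold change was 0.53 (SE 0.0973, edgeR adjusted p = 0.00133). It passed in 15 of 18 alternatives, and not on log2(TPM + 1) (limma adjusted p = 0.0865), log2(TPM + 0.1) (0.0833) nor against the stricter null of 1.2-fold (0.081). Of its 50 nearest tested genes on chromosome 1, 21 rose and 0 fell by edgeR, with a median log2 fold change of 0.177. The part of that shift in the rise of SLC6A9 was not tested. SLC6A9 overlaps CCDC24 on the other strand (gene level 2.4 CPM), so reads of these genes may be shared.

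The creatine transporter SLC6A8 had 219, 206 and 209 CPM in wild-type libraries and 196, 197 and 202 CPM in knockout libraries. The groups did not overlap, yet the gene did not pass (log2 fold change -0.091, SE 0.0338, edgeR adjusted p = 0.0685), and near-identical pseudogene copies leave its level uncertain. SLC6A6, the taurine transporter, had 85.7 ± 2.26 and 82.2 ± 3.67 CPM. SLC6A15 had 170.2 ± 3.23 and 171 ± 3.19 CPM, a log2 fold change of 0.007 with an interval of -0.06 to 0.08. On the TPM scale, by contrast, SLC6A15 had 74, 74.2 and 80.4 in wild-type libraries and 66.6, 64.6 and 67.8 in knockout libraries. The counts of SLC6A15 overlap while its TPM do not, and its deposited effective length was 3430 to 3809 bases in wild-type libraries and 3914 to 4012 in knockout libraries.

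The remaining carriers held 2 further falls. SLC36A1 (PAT1, chromosome 5, 151437046 to 151492381, plus strand), a proton-coupled exporter of small neutral amino acids from lysosomes, had 36.8, 34.7 and 34.1 CPM in wild-type libraries and 26.1, 27.8 and 27.6 CPM in knockout libraries. The groups were clearly apart. The log2 fold change of SLC36A1 was -0.37 (SE 0.0591, edgeR adjusted p = 4.71e-04), and -0.32 with length-trend offsets. It passed without each of the 6 libraries in turn (log2 fold change -0.34 to -0.39), and not with effective-length offsets (adjusted p = 0.0564) or on log2(TPM + 1) (0.0747). Its deposited effective length was 4660 to 5173 bases in wild-type libraries and 4488 to 4629 in knockout libraries, and the part of that in the TPM result was not tested. SLC36A4, of the same family, had 53.1 ± 2.05 and 56.3 ± 0.426 CPM and did not pass (edgeR adjusted p = 0.22).

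SLC43A1 (LAT3), a facilitated carrier of branched-chain amino acids, had 18.7, 15.9 and 18.8 CPM in wild-type libraries and 15.6, 13.6 and 15 CPM in knockout libraries. Wild-type replicate 2 lay next to the knockout values. The log2 fold change was -0.28 (SE 0.0895, edgeR adjusted p = 0.0389). The call ended in DESeq2 (0.0731) and in edgeR when leaving out wild-type replicate 1 (0.127), wild-type replicate 3 (0.131) or knockout replicate 2 or 3 (0.143 and 0.0578). SLC43A2 (LAT4) had 8.38 ± 0.661 and 7.99 ± 0.567 CPM, and SLC16A10 (TAT1), a carrier of aromatic amino acids, 78 ± 0.86 and 74.5 ± 1.91 CPM. Neither passed the test.

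**Figure D4:**
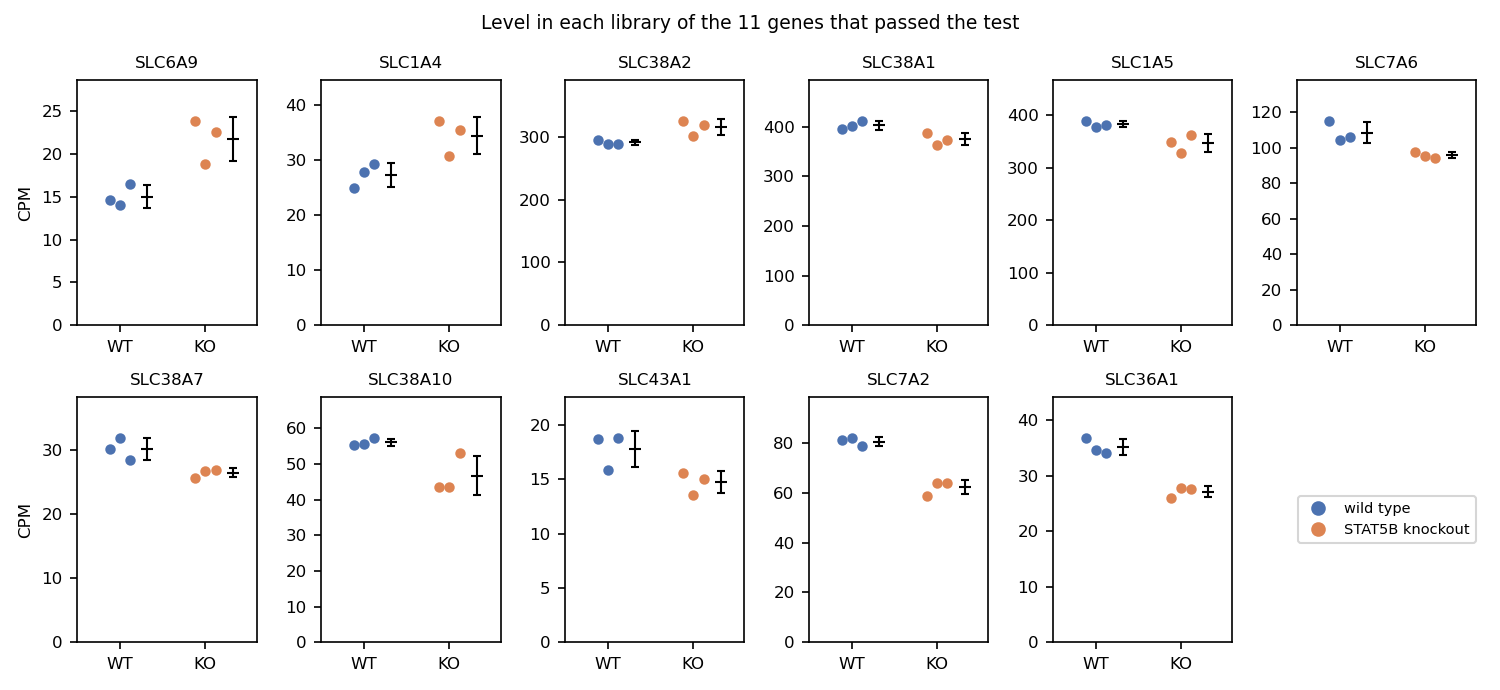
CPM in each library, with mean and SD beside the points, of the 11 transporter genes that passed the test, ordered from the largest rise to the largest fall and each on an axis from 0. In all 11 the 3 knockout values lie on a single side of the 3 wild-type values, and among the falls the gap relative to the level is widest for SLC7A2 and SLC36A1.

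Position on the chromosome was set beside each change, because whole stretches of some chromosomes were shifted in these data. Among the 11 genes, SLC6A9 and SLC38A10 lay in stretches shifted in their own direction, while SLC38A7 fell among neighbours that were higher. For the other 8 the median of up to 50 nearest tested genes was between -0.053 and 0.048. SLC7A2 had neighbours with a median of 0.034, of which 3 rose and 4 fell. SLC36A1 had 50 neighbours with a median of -0.019, of which 4 rose and 14 fell, while 12.1% and 11.4% of all genes tested did. The part of these falling neighbours in the fall of SLC36A1 was not tested. SLC1A4 had neighbours with a median of 0.02, and SLC1A5 of -0.053.

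**Figure D5:**
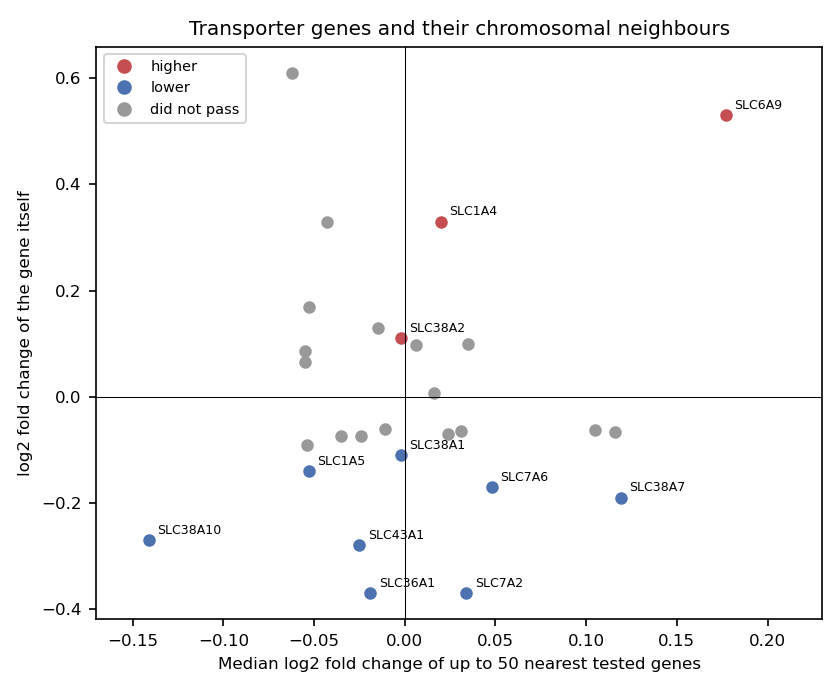
Log2 fold change of each of the 28 tested transporter genes against the median log2 fold change of up to 50 nearest tested genes, with the 11 changed genes named. SLC6A9 (neighbour median 0.177) and SLC38A10 (-0.141) lie at the ends of the horizontal axis.

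Other genes of amino acid transport were described from lists, whose counts stand beside the 12.1% of all genes tested that rose and the 11.4% that fell. Of 26 other plasma membrane amino acid transporters, 19 were too low to test and 0 of 7 tested passed in edgeR, DESeq2 or limma-voom, with 1 higher and 1 lower at an unadjusted p under 0.05 in edgeR. Of 13 tested mitochondrial amino acid carriers 2 rose and 2 fell, 15.4% each way and near the share of all genes. SFXN1, the mitochondrial serine carrier, went from 286 to 312 CPM (log2 fold change 0.13), and its relatives SFXN2 and SFXN3 fell by 0.39 and 0.50 on the log2 scale (edgeR adjusted p = 0.0141, 4.44e-04 and 0.0103). SLC25A44, a branched-chain amino acid carrier, rose by 0.12 (edgeR adjusted p = 0.0482, and 0.146 in DESeq2), on chromosome 1 with its median of 0.148. The call of SFXN1 ended without wild-type replicate 1 or 2 or knockout replicate 2 (0.074, 0.0615 and 0.0591), that of SFXN3 without wild-type replicate 3 (0.0598), and that of SLC25A44 without any of the 6 libraries in turn (0.0648 to 0.153). Of 7 tested lysosomal and vesicular carriers 1 fell, MFSD12, a cysteine importer of lysosomes and melanosomes, with a log2 fold change of -0.22 (edgeR adjusted p = 0.0185). Its adjusted p was 0.0604, 0.0805 and 0.0895 without wild-type replicate 1 or knockout replicate 1 or 2.

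Of 40 tested genes of mTORC1, its sensing of amino acids and its related control, 4 rose and 7 fell. These are 10% and 17.5%, near the shares of all genes. Of the 4 that rose, 3 lie on chromosome 1. LAMTOR2, a subunit of the lysosomal Ragulator scaffold, rose from 21.8 ± 0.943 to 30.9 ± 0.73 CPM, and the leucine sensor SESN2 from 52.9 ± 4.54 to 73.3 ± 6.06 CPM (edgeR adjusted p = 6.81e-05 and 2.39e-04). The median log2 fold change of that chromosome was 0.148. RHEB, the GTPase that activates mTORC1, rose by 0.28 on the log2 scale. TSC1, a subunit of the complex that inactivates RHEB, fell by 0.25, the folliculin partner FNIP2 by 0.24 and the mTORC1 subunit RPTOR by 0.24 (edgeR adjusted p = 9.60e-04, 0.00508 and 0.00516). RPTOR lies on chromosome 17 (median -0.066), at 80544819 to 80966371, close to SLC38A10. With length-trend offsets FNIP2 and RPTOR had adjusted p of 0.0558 and 0.0581.

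Of 23 tested regulators of transporter transcription, 10 rose and 5 fell, which is 43.5% and 21.7% beside 12.1% and 11.4% of all genes. ATF4 mRNA rose from 586 ± 9.51 to 724 ± 25.8 CPM (log2 fold change 0.31, edgeR adjusted p = 3.15e-05). PPP1R15B, which directs dephosphorylation of the initiation factor eIF2, rose by 0.20 and, with ATF3, is 1 of 2 among the 10 on chromosome 1 (median 0.148). ATF3 is named here after its value was seen. GCN1, an activator of the amino acid sensing kinase GCN2, fell by 0.21 (edgeR adjusted p = 8.07e-04). The kinase EIF2AK2 fell by 0.19 and the ATF4 relative ATF5 by 0.43 (edgeR adjusted p = 6.54e-04 and 0.00212). With effective-length offsets 6 of these regulators rose and 2 fell, and EIF2AK2 had a log2 fold change of -0.069 (adjusted p = 0.421). On log2(TPM + 1) PPP1R15B and EIF2AK2 did not pass (limma adjusted p = 0.17 and 0.181). Of 15 tested genes for trafficking and degradation of transporters (6.67% rose and 26.7% fell) 1 rose, SGK1, by 0.45, and 4 fell, LAPTM4B, ARRDC1, OTUB1 and TXNIP. Of these LAPTM4B, which brings SLC3A2 and SLC7A5 to lysosomes, fell by 0.14 (edgeR adjusted p = 0.00592). SGK1 had an adjusted p of 0.0506 without wild-type replicate 1, ARRDC1 0.0606 and 0.0577 without wild-type replicate 1 or knockout replicate 2, and OTUB1 0.057, 0.0702 and 0.0703 without wild-type replicate 1 or 3 or knockout replicate 2. TXNIP had 0.169 and 0.144 without wild-type replicate 2 or 3 and 0.0882, 0.0866 and 0.115 without knockout replicate 1, 2 or 3. It also did not pass in DESeq2 (adjusted p = 0.105) or limma-voom (0.0583).

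Of 29 tested enzymes that make or use the transported amino acids or their products, 11 rose and 1 fell. These are 37.9% and 3.45%, beside 12.1% and 11.4% of all genes. Of the 11 that rose, 4 lie on chromosome 1 (median 0.148), among them PHGDH, and the part of that shift was not tested. PHGDH, the first enzyme of serine synthesis, had 343 ± 9.23 and 445 ± 22.5 CPM. CBS, which joins serine and homocysteine, had 184 ± 8.67 and 218 ± 7.09 CPM, and PSAT1, which follows PHGDH in serine synthesis, 240.0 ± 13.6 and 286 ± 12.9 CPM. With effective-length offsets 5 of the enzymes rose and 1 fell, and CBS did not pass (adjusted p = 0.0774). On log2(TPM + 1) CBS and PSAT1 did not pass (limma adjusted p = 0.269 and 0.113). The call of PHGDH ended only against a 1.2-fold change (0.0639). The creatine kinase CKMT1A fell by 0.28 on the log2 scale, but a near-identical copy, CKMT1B, leaves its level uncertain, and it had an adjusted p of 0.0549 without wild-type replicate 3 and 0.0638 without knockout replicate 2.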

How the data were processed

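Messenger RNA was sequenced in 6 libraries of HEK293 cells, 3 wild type and 3 labelled STAT5B knockout. Per the submitters' processing notes the tools were FastQC, fastp, DRAGEN and Picard and the build was hg38, without roles or versions. The annotation, counting method and strand setting were not given in the sources used here. A deposited file held per gene an estimated count, TPM, length and effective length, per the file headers. Estimated counts, as deposited, were rounded for the count tests (7.12% to 7.64% were not whole). TPM as deposited by the authors summed to 1000000 per library.

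Differences were tested with edgeR 4.0.16 in R 4.3.3 (filterByExpr with minimum count 10 and minimum total 15, TMM scaling, quasi-likelihood F test), adjusted by Benjamini-Hochberg over 15958 genes at a threshold of 0.05. The low-count filter removed 44651 genes. Alternatives used DESeq2 1.42.0, limma 3.58.1 (voom, and log2 of TPM plus 1 or 0.1), other scalings, filters and length offsets, the replicate number as a block, a 1.2-fold null and leaving out each library. The count tests were checked on simulated counts. Positions came from GENCODE release 29 on GRCh38.

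The members, lists and tests were chosen with earlier results of these data known. Every member was accounted for. Values per library are given for the members that passed the test and for the 5 with the highest wild-type TPM. Of the other lists the text names all changed genes where at most 5 changed, otherwise the 3 with the smallest p in each direction. Some genes of these lists and of the marker lists are not reported here.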

Additional observations from a re-analysis of the deposited data

How the results depend on the processing

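Of 504 fold changes of single transporter genes under the alternatives, 408 kept their sign and their side of the threshold, 74 lost the call and 4 gained it with the same sign. Another 18 values, of 8 genes that did not pass as reported, had the other sign, and 16 of them passed in neither setting. The 2 that passed were SLC6A15 on log2(TPM + 1) (-0.197, limma adjusted p = 0.0459) and on log2(TPM + 0.1) (-0.2, 0.0469). With effective-length offsets 1 transporter gene rose and 1 fell, as did 891 and 844 of all genes and 16 and 8 of the other lists. With length-trend offsets, and with length and GC offsets chosen after seeing the data, 5 transporter genes fell, and the medians were 0.024 and 0.02. On log2(TPM + 1) 488 genes rose and 1135 fell, among them 0 and 3 transporter genes and 6 and 8 of the other lists. On log2(TPM + 0.1) these counts were 483 and 1139, 0 and 3, and 6 and 9. Against a 1.2-fold change they were 155 and 140, 0 and 0, and 3 and 0, with 3 lower in the other lists at an unadjusted p under 0.05. The causes were not tested. With each library left out in turn, 1 to 3 transporter genes rose and 3 to 7 fell, 20 to 28 and 13 to 20 genes of the other lists, and 1339 to 1789 and 1279 to 1786 of all genes.

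With the replicate block 3 transporter genes rose and 7 fell, SLC38A7 being lost. Deviations of same-numbered libraries correlated at -0.052, 0.162 and 0.024, and wild-type replicate 1 correlated best with knockout replicate 3 (0.135), so the numbers were not taken to pair the samples. With 3 libraries a group, the median SE of a log2 fold change was 0.0569 among the 28 genes.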

Other observations

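Summed over each group of transporters, levels differed in which libraries overlapped. The SLC6 genes summed to 241 ± 6.32 TPM in the wild type and 218 ± 3.9 TPM in the knockout (SD, n = 3), without overlap. Of these genes SLC6A15 was lower in TPM (76.2 ± 3.66 and 66.3 ± 1.62) but overlapped in CPM (170.2 ± 3.23 and 171 ± 3.19). SLC6A8 was lower in both units, SLC6A9 was higher in both and SLC6A6 overlapped in both. No CPM sum was made for the SLC6 genes, and the part of effective length in their TPM sum was not tested. The SLC36 genes summed to 44.8 ± 1.99 and 45.1 ± 2.32 TPM and overlapped, although SLC36A1 fell. Over all 31 genes the sum was 1412, 1359.6 and 1404 TPM in the wild type and 1316, 1209 and 1326 TPM in the knockout. In CPM it was 2941 to 2995 and 2748 to 2935. No test was run on these sums.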
